A study of Homo sapiens with 3 samples.

Results

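Solute carriers (SLC) are membrane proteins that move amino acids, sugars, metals, ions, nucleotide sugars and vitamins across the plasma membrane and the membranes of lysosomes, Golgi and endoplasmic reticulum (ER). Here the mRNAs of this superfamily were followed in RNA precipitated with MEX3A-Flag, an RNA-binding protein with KH domains, in the human cell line ACHN, established from a renal cell carcinoma. The members are the rows typed as protein-coding whose symbol has the SLC pattern of family number, letter and gene number, without the SLC25A carriers of mitochondria, and with at least 20 expected counts summed over both precipitates. That rule took 141 of 335 such SLC rows, out of 57820 genes listed and 10811 genes with at least 20 counts. Counts chose which genes entered, and the ratio of the precipitates did not enter the rule. The members fall into 42 families and carry 140 symbols, since SLC5A3 is listed under 2 gene identifiers. The pattern also took 5 genes that are only named after a transporter, namely the scaffold genes SLC9A3R1 and SLC9A3R2, SLC2A4RG, SLC4A1AP and SLC7A6OS. They are kept in the totals and described apart, which leaves 136 rows for transporters and their subunits.

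The Flag group is RNA captured with an anti-Flag antibody and the IgG group is RNA captured with IgG, the background of the method. Both come from ACHN cells that stably express MEX3A-Flag and were fixed with 0.3% formaldehyde, stopped with 0.125 M glycine. Each group has 1 library, and messenger RNA was selected on oligo(dT) before sequencing. Input RNA was not analysed here, so every ratio below sets 1 precipitate against the other and says nothing of the level in the cells. In bulk samples like these, more cells with an RNA and more of that RNA per cell cannot be told apart.

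Totals were 5498124 counts with Flag and 3412864 with IgG, and mitochondrially encoded RNAs took 33.0% of Flag counts and 8.93% of IgG counts. Levels are given as CPM, which scale each count by these totals. The ratio is Flag CPM over IgG CPM with an exact 95% counting interval. A gene was called enriched when that interval lay wholly above 2 and depleted when it lay wholly below 0.5. With 1 library in each group there is no replicate to check a ratio by, and none has a p-value. Intervals cover counting error only, and amplified reads that carry no molecular identifier need not be separate molecules. Of 10 renal epithelial markers, 9 had at least 10 counts in each precipitate, among them PAX8 with 461 CPM in Flag and 307 CPM in IgG. CDH6 was at 0 in both. Endothelial markers summed to 1.64 CPM in Flag and 0 in IgG, and leukocyte markers to 5.46 CPM in Flag and 3.81 CPM in IgG, all of it CD68. Fibroblast markers summed to 160 CPM in Flag and 187 CPM in IgG, nearly all of it COL1A1, with DCN and COL3A1 at 0.

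SLC transporters do distinct jobs by family. The SLC7 light chains import amino acids, several of them only when bound to the heavy chain encoded by SLC3A2. SLC39 proteins bring zinc into the cytosol and SLC30 proteins remove it, while SLC35 proteins feed nucleotide sugars to the glycosylation enzymes of the Golgi and ER. Renal epithelium is rich in SLC transporters because it recovers solutes from filtrate.

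Of the 9 transporter genes on a list of the amino acid response, by which the transcription factor ATF4 raises import when amino acids are scarce, 8 were members. Promoters of this list are shown because its members are known for shared control at their genes and yet had very different ratios. The windows run from 250 bases before to 50 after the start site, from RefSeq on build GRCh38.p14, and capitals mark a match to the ATF4 element TGATGNAA or, on the other strand, TTNCATCA. Such a match lies in 1270 of all 35116 promoter windows (3.62%), and in 4 of the 12 windows of the list. By gene, 4.46% of 27305 symbols in the table have a match in some window, as have 4 of the 7 list genes that it holds. The first is chr13:29595639-29595938 on the minus strand, with the match at base 8 after the start site. SLC3A2 is given at chr11:62881449-62881748 on the plus strand, with the match at base 38 after the start. SLC1A4 is at chr2:64989149-64989448 on the plus strand and SLC1A5 at chr19:46784765-46785064 on the minus strand. SLC3A2, SLC1A4 and SLC1A5 also have other windows in the table, which hold no match.
SLC7A1: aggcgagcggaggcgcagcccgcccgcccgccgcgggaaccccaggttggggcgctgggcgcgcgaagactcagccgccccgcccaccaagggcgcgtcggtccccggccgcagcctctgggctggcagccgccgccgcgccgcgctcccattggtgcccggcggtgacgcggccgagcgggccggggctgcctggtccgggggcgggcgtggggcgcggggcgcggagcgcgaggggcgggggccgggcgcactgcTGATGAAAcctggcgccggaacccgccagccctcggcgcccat
SLC3A2: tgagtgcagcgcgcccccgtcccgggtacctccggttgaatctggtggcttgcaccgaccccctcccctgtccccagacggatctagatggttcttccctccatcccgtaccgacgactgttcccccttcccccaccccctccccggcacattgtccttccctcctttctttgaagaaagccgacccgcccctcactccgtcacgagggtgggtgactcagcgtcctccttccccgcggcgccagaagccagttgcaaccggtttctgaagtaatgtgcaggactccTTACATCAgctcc
SLC1A4: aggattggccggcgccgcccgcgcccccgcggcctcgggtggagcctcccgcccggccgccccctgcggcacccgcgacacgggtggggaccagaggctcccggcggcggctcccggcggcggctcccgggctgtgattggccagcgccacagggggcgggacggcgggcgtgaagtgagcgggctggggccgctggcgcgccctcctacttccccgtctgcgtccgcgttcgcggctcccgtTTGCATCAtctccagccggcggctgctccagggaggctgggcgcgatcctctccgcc
SLC1A5: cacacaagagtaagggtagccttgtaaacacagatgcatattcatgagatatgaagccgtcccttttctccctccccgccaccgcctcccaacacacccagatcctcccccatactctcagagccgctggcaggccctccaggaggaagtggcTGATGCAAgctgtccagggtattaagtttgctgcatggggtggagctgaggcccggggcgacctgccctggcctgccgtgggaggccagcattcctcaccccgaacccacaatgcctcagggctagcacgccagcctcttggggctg
Among these 4 genes SLC7A1 was enriched in the Flag library at a ratio of 5.02, while SLC3A2 had a ratio of 0.896, SLC1A4 of 0.975 and SLC1A5 of 1.15. The list genes with no match were SLC7A5, with a ratio of 4.48, SLC38A2, with 1.48, and SLC6A9, with 0.621. SLC7A11, an enriched member of the list with a ratio of 4.01, had no window to search. The match is a description of the letters, and promoter DNA upstream of the start site is not part of the RNA that was precipitated. The matches of SLC1A4 and SLC1A5 begin upstream. Those of SLC7A1 and SLC3A2 lie after the start site given, in sequence that is transcribed from that start.

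The question put to the members is which transporter mRNAs were more frequent with MEX3A-Flag than with IgG. Of 141 members, 39 were enriched (27.7%) and 0 were depleted, and 102 were neither. Over all 10811 genes that entered, 28.7% were enriched and 1.32% depleted, so the share among SLC members lies close to the background and is not a result about the superfamily. Members had a median log2 ratio of 0.92, with quartiles of 0.21 and 1.97, beside 0.95, 0.10 and 1.88 for all genes. Together the members made up 0.402% of Flag counts and 0.173% of IgG counts, a summed ratio of 2.32 (2.26 to 2.39). In each library, the 5 members with the most counts there gave 33.1% (Flag) and 28.1% (IgG) of the members' counts. Summed the same way, SLC25A carriers had a ratio of 1.75, TMEM membrane protein genes 2.69 and all protein-coding genes that entered 0.755.

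**Figure D1:**
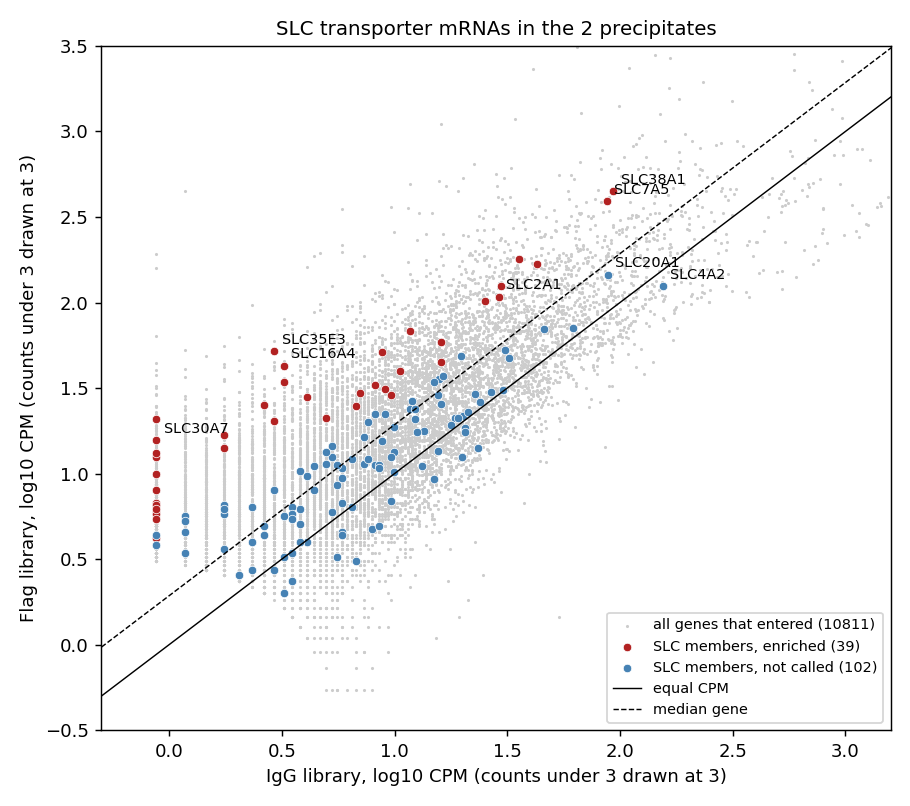
Each point is a gene, with its level in the IgG library on the x axis and in the Flag library on the y axis, both as log10 CPM; grey points are all genes that entered, red points the 39 enriched SLC members and blue points the 102 that were not called. SLC members lie on both sides of the dashed line of the median gene, with a ratio of 1.93, and the few most abundant genes lie beyond the axes.

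Since 0 on the log2 scale moves with what fills each library, members were also set against the median gene, whose ratio was 1.93, a comparison that no scaling can shift and that was added after seeing the data. The interval of 39 members lay wholly above the median gene and that of 33 wholly below it, where all genes had 30.1% above and 30.4% below. Ratios ran between 0.459 for SLC26A11, an anion transporter of the SLC26 family, and 53.4 for SLC30A7, a zinc transporter of the Golgi.

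Many of the calls rest on few IgG counts. Of the 39 enriched members, 22 had fewer than 20 counts in the IgG library and 13 had fewer than 4. Such genes passed the minimum through their Flag counts, so their number does not support enrichment. Among the 76 members with at least 20 IgG counts, 17 were enriched, beside 25.7% of the 6548 genes with as many. Of the 12 members with at least 100 IgG counts, 5 were enriched, namely SLC38A1, SLC7A5, SLC26A2, SLC7A1 and SLC39A1, beside 23.2% of 1770 genes. The members just inside the minimum were SLC10A3, with 14 Flag and 7 IgG counts, and SLC6A9, with 11 counts in each library. Just outside were SLC9B2, with 13 Flag and 6 IgG counts, and SLC10A7 and SLC35E4, each with 18 Flag counts and 0 IgG counts. Of the 194 SLC rows that did not enter, 128 had 0 counts in both libraries.

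**Figure D2:**
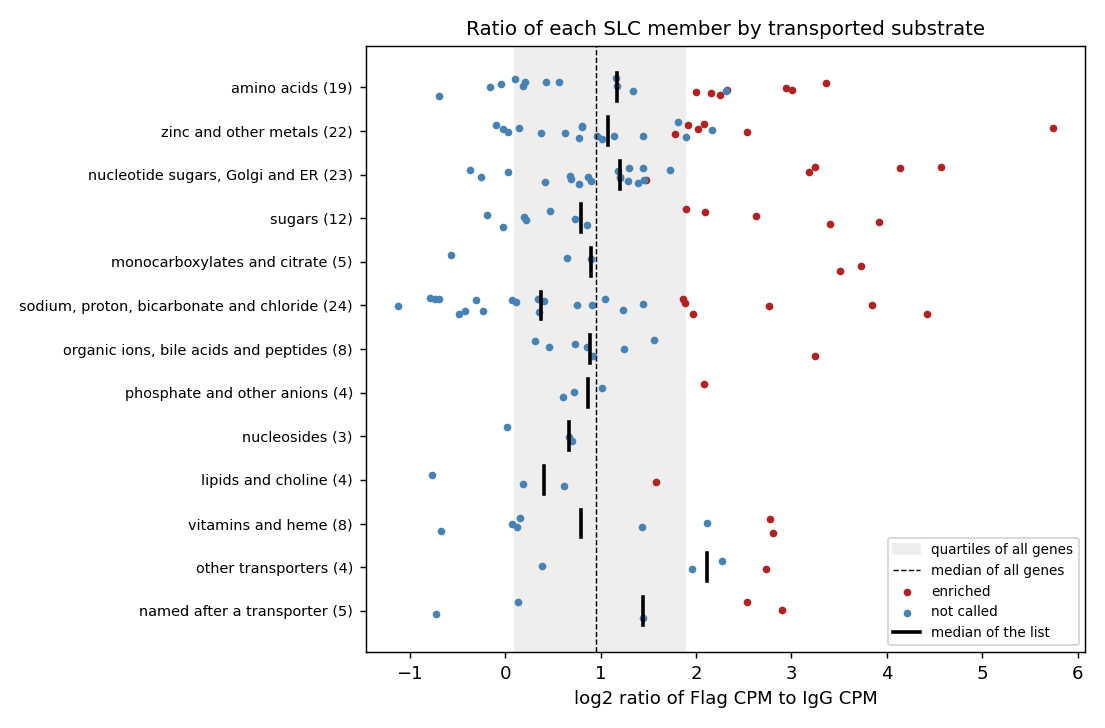
Log2 ratio of Flag CPM to IgG CPM (x axis) of each member, by the kind of solute moved (y axis, number of members in parentheses), with enriched members in red, the list's median as a black bar and the quartiles of all genes as a grey band. The ion exchangers and cotransporters have a median of 0.38, under the dashed line of all genes at 0.95, and the amino acid transporters one of 1.17.

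Amino acid transporters included the enriched members with the most counts. Of 19, 7 were enriched (36.8%, beside 28.7% of all genes) and 0 depleted, with a median log2 ratio of 1.17. SLC38A1, a sodium-coupled importer of glutamine and other neutral amino acids, had 446 CPM (2452 counts) with Flag and 93.5 CPM (319 counts) with IgG, a ratio of 4.77 (4.24 to 5.38). SLC7A5, the light chain that imports large neutral amino acids such as leucine, had 392 CPM (2158 counts) with Flag and 87.6 CPM (299 counts) with IgG, a ratio of 4.48 (3.97 to 5.07). SLC7A1, which imports arginine and lysine, had 180 CPM (987 counts) with Flag and 35.7 CPM (122 counts) with IgG, a ratio of 5.02 (4.16 to 6.11). These levels rest on over 100 counts in each library, and the 3 intervals overlap one another.

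In family SLC7 4 of 5 members were enriched, SLC7A2 among them on 0 IgG counts, beside 28.7% of all genes. With 5 members this describes single genes and not the family. SLC7A11, the cystine-glutamate exchanger that supplies cysteine for glutathione, had 181 counts with Flag against 28 with IgG, a ratio of 4.01 (2.68 to 6.21). For SLC7A2, a related importer of cationic amino acids, the counts were 37 with Flag and 0 with IgG. Its interval began at 5.92, and its ratio was 7.66 with the IgG count set to a floor. A count of 0 was set here to a floor of 3 counts, or 0.879 CPM in the IgG library, the limit that a count of 0 allows. SLC7A6, which exchanges cationic for neutral amino acids, had 119 counts with Flag and 69 with IgG, for a ratio of 1.07 (0.789 to 1.46), below the median gene, and its counts were fractional.

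The heavy chain lay below SLC7A5 and SLC7A11 and close to SLC7A6. SLC3A2, whose protein carries SLC7A5, SLC7A11 and SLC7A6 to the plasma membrane, had 18.4 CPM (101 counts) with Flag and 20.5 CPM (70 counts) with IgG, a ratio of 0.896 (0.654 to 1.23), wholly below the median gene. The ratio of SLC7A5 was 5.00 times that of SLC3A2 (counting interval 3.54 to 7.02), and that of SLC7A11 was 4.48 times it (2.65 to 7.68). These and the other 14 of 16 pairs of members set against each other were chosen after their values were seen, so they describe these libraries. Like every ratio of ratios, they do not depend on how the libraries are scaled.

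The neighbouring paralogs SLC38A1 and SLC38A2, both glutamine importers of the plasma membrane, differed too. SLC38A2, which cells raise when amino acids run out, had 262 counts with Flag and 110 with IgG, for a ratio of 1.48 (1.18 to 1.86), and the ratio of SLC38A1 was 3.23 times as large (2.48 to 4.17). SLC38A10, an amino acid transporter of the same family, had 390 Flag against 212 IgG counts and a ratio of 1.14 (0.964 to 1.36). SLC38A9, the lysosomal arginine sensor of the mTORC1 pathway, had 24 Flag against 3 IgG counts, which left its ratio of 4.97 uncalled (1.51 to 25.8).

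Among other amino acid carriers, the glutamate importer SLC1A1 had 33 Flag against 2 IgG counts, a ratio of 10.2 (2.62 to 88.1), and SLC36A4 had 78 Flag against 6 IgG counts, a ratio of 8.07 (3.54 to 22.7). The glutamine exchanger SLC1A5 had 117 counts with Flag and 63 with IgG, for a ratio of 1.15 (0.842 to 1.59) wholly below the median gene. The glycine importer SLC6A9 had the lowest ratio of the list at 0.621 (0.244 to 1.58). The taurine importer SLC6A6 (2.25, 1.66 to 3.10) and SLC36A1, a proton-coupled exporter of lysosomes (2.23, 1.42 to 3.63), lay at the middle of all genes. Of the 8 amino acid response members, 3 were enriched and 4 lay wholly below the median gene, beside 28.7% and 30.4% of all genes. The list's median log2 ratio was 0.38.

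**Figure D3:**
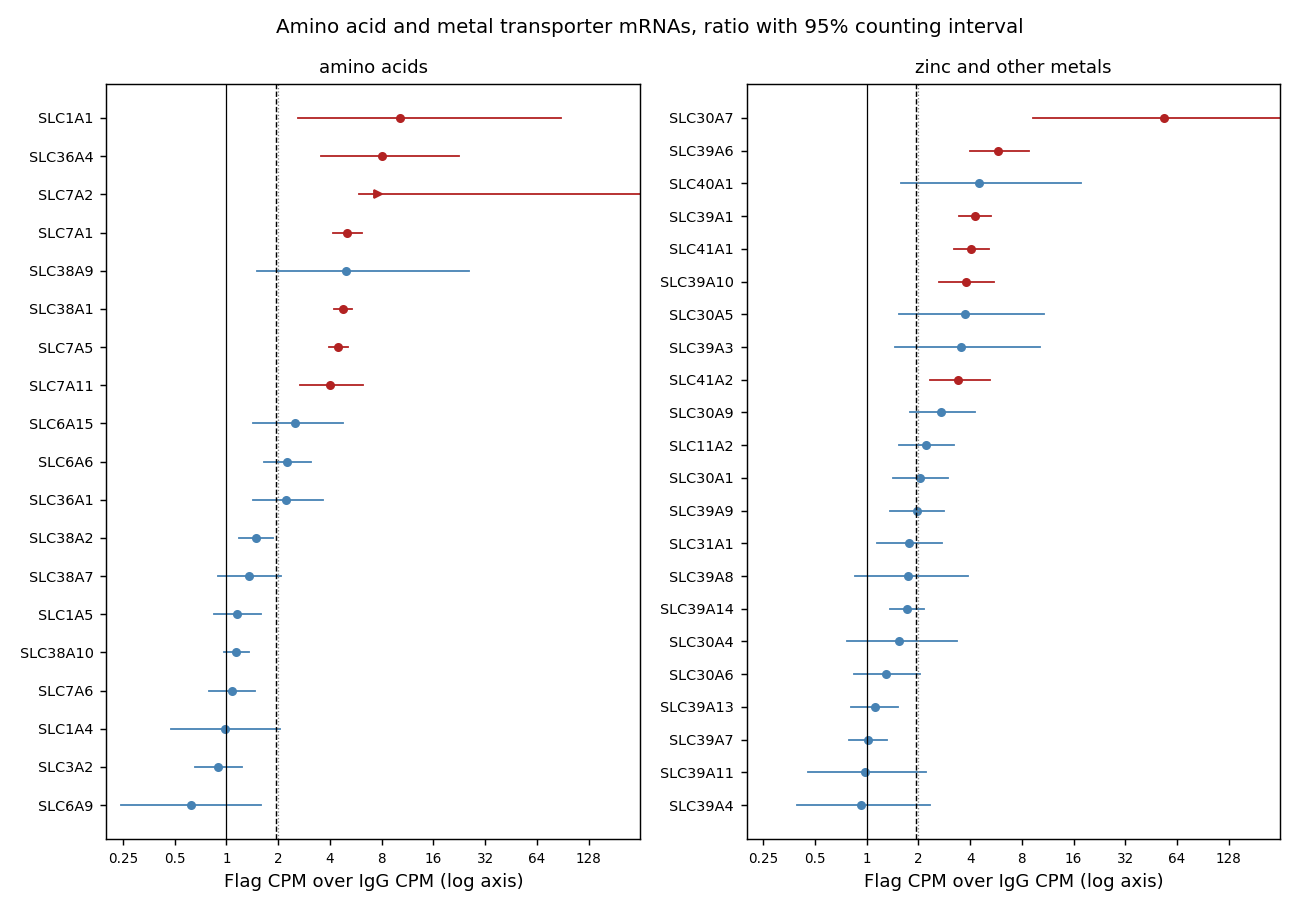
Ratio of Flag CPM to IgG CPM (log axis) of each amino acid transporter (left) and metal transporter (right), with lines for the 95% counting interval, red for enriched members, a triangle where the IgG count of 0 was set to the floor, and vertical lines at 1 (solid), 2 (dotted) and the median gene at 1.93 (dashed). SLC38A1, SLC7A5 and SLC7A1 have narrow intervals between 3.97 and 6.11, while the intervals of SLC7A2 and SLC30A7 run beyond the axis.

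Metal transporters had 6 enriched (27.3%) and 0 depleted of 22, close to the 28.7% enriched over all genes. Their median log2 ratio was 1.08. Zinc importers of the plasma membrane were among them. SLC39A1 had 125 CPM (690 counts) with Flag and 29.6 CPM (101 counts) with IgG, a ratio of 4.24 (3.44 to 5.28). SLC39A6 had 51.3 CPM (282 counts) with Flag against 8.79 CPM (30 counts) with IgG, a ratio of 5.83 (4.00 to 8.81), and SLC39A10, its close relative, 219 Flag against 36 IgG counts and a ratio of 3.78 (2.65 to 5.53). Both magnesium transporters of family SLC41 that entered were enriched, SLC41A1 with 562 Flag against 86 IgG counts (ratio 4.06, 3.23 to 5.15) and SLC41A2 with 171 Flag against 31 IgG counts (ratio 3.42, 2.33 to 5.20).

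The SLC39 zinc transporters of the ER and Golgi gave lower ratios than these. SLC39A7, which releases zinc from the ER, had 30.7 CPM (169 counts) with Flag and 30.2 CPM (103 counts) with IgG, a ratio of 1.02 (0.792 to 1.31). SLC39A13, of the same pathway, had a ratio of 1.11 (0.811 to 1.52), and both intervals lay below the median gene. The ratio of SLC39A1 was 4.16 times that of SLC39A7 (2.98 to 5.82). SLC39A14, which takes up zinc and iron, had a ratio of 1.71 (1.36 to 2.16) from 289 Flag and 105 IgG counts. SLC39A4, the zinc importer of the gut, and SLC39A11 had ratios of 0.931 (0.391 to 2.32) and 0.983 (0.453 to 2.22), from 15 and 19 Flag counts against 10 and 12 IgG counts.

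In family SLC30 only SLC30A7 was called of 6 members (16.7%), beside 28.7% of all genes. It had 86 counts with Flag and 1 with IgG, a ratio of 53.4 (9.33 to 2133). This ratio rests on a single IgG count, and in RefSeq the gene's span overlaps that of DPH5, so reads of the neighbour cannot be told apart without a stated strand setting. SLC30A6, which pairs with SLC30A5 in the secretory pathway, had 69 Flag against 33 IgG counts and a ratio of 1.30 (0.845 to 2.03). SLC30A1, the zinc exporter of the plasma membrane, had 131 Flag against 40 IgG counts and a ratio of 2.03 (1.42 to 2.97), close to the median gene. SLC40A1, the iron exporter ferroportin, had 29 Flag against 4 IgG counts and a ratio of 4.50 (1.58 to 17.6). SLC11A2, an iron importer, had 146 Flag against 41 IgG counts and a ratio of 2.21 (1.55 to 3.21), and the copper importer SLC31A1 85 Flag against 30 IgG counts and a ratio of 1.76 (1.15 to 2.76). None of these 5 was called.

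Carriers of families SLC33, SLC35 and SLC37, most of them in the Golgi and ER, had 5 enriched (21.7%) and 0 depleted of 23. Over all genes 28.7% were enriched. The median log2 ratio of these carriers was 1.20. SLC35E3, whose substrate is not established, had 51.8 CPM (285 counts) with Flag and 2.93 CPM (10 counts) with IgG, a ratio of 17.7 (9.48 to 37.3), the highest lower bound of all members. SLC33A1, which brings acetyl-CoA into the ER, had 115 Flag against 3 IgG counts and a ratio of 23.8 (7.94 to 117). SLC35A3, which carries UDP-N-acetylglucosamine into the Golgi, had 138 Flag against 9 IgG counts and a ratio of 9.52 (4.87 to 21.3). SLC35A5 (9.10, 2.92 to 45.8, 44 Flag against 3 IgG counts) and SLC35F5 (2.80, 2.08 to 3.82, 248 Flag against 55 IgG counts) were the other two.

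Family SLC35 as a whole had 4 of 20 members enriched, and 14 of them were neither above nor below the median gene. The UDP-galactose carrier SLC35A2 had a ratio of 2.63 (1.70 to 4.20), the sulfate donor carrier SLC35B2 1.60 (1.00 to 2.62) and the GDP-fucose carrier SLC35C1 1.83 (1.09 to 3.21). SLC35A4 (0.841, 0.563 to 1.27) and SLC35G2 (0.776, 0.414 to 1.47) lay below the median gene, as did SLC37A3 (1.02, 0.656 to 1.61). The ratio of SLC35A3 was 11.3 times that of SLC35A4 (5.01 to 27.7). SLC35E2B had fractional counts, and summed with its near copy SLC35E2 the ratio was 1.92 (1.45 to 2.56).

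Transporters of sodium, protons, bicarbonate and chloride had the lowest median of the larger lists. Of 24, 6 were enriched and 0 depleted, and 10 lay wholly below the median gene. Among all genes that entered, 28.7% were enriched and 30.4% lay wholly below the median gene. The median log2 ratio of these transporters was 0.38. SLC4A2, a chloride-bicarbonate exchanger and the SLC member with the most IgG counts, had 125 CPM (686 counts) with Flag and 155 CPM (529 counts) with IgG, a ratio of 0.805 (0.718 to 0.903, with fractional counts). SLC4A4, the sodium-bicarbonate cotransporter of the proximal tubule, had 58.6 CPM (322 counts) with Flag against 16.1 CPM (55 counts) with IgG, a ratio of 3.63 (2.72 to 4.93). The ratio of SLC4A4 was 4.51 times that of SLC4A2 (3.30 to 6.26), so members of 1 family lay on either side of the median gene.

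The Golgi sodium-proton exchangers SLC9A7 (2.35, 1.29 to 4.59) and SLC9A8 (2.07, 0.801 to 6.30) were not called. The sodium-potassium-chloride importer SLC12A2 had 136 Flag against 23 IgG counts, a ratio of 3.67 (2.35 to 5.99). The potassium-chloride exporters SLC12A4 (1.27, 0.965 to 1.69, with fractional counts) and SLC12A7 (0.851, 0.619 to 1.18) had lower ratios, and the ratio of SLC12A2 was 4.31 times that of SLC12A7 (2.45 to 7.74).

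The sulfate transporter SLC26A2 had 168 CPM (926 counts) with Flag and 43.1 CPM (147 counts) with IgG, a ratio of 3.91 (3.28 to 4.69). Its relatives SLC26A6 (26 Flag against 27 IgG counts, ratio 0.598, 0.335 to 1.06) and SLC26A11 (17 Flag against 23 IgG counts, ratio 0.459, 0.230 to 0.897) lay wholly below the median gene. Of 4 members of the sodium-calcium exchanger families SLC8 and SLC24, SLC8A1 and SLC24A2 were enriched on few IgG counts, beside 28.7% of all genes. SLC8A1 had 154 Flag against 14 IgG counts, a ratio of 6.83 (3.95 to 12.8), with fractional counts, and SLC24A2 had 69 Flag against 2 IgG counts, a ratio of 21.4 (5.71 to 180). SLC8B1, with 62 Flag against 29 IgG counts (1.33, 0.841 to 2.14), and SLC24A1, with 114 Flag against 42 IgG counts (1.68, 1.17 to 2.46), were not called. SLC12A8 had 23 Flag counts against 1 IgG count (14.3, 2.32 to 588).

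**Figure D4:**
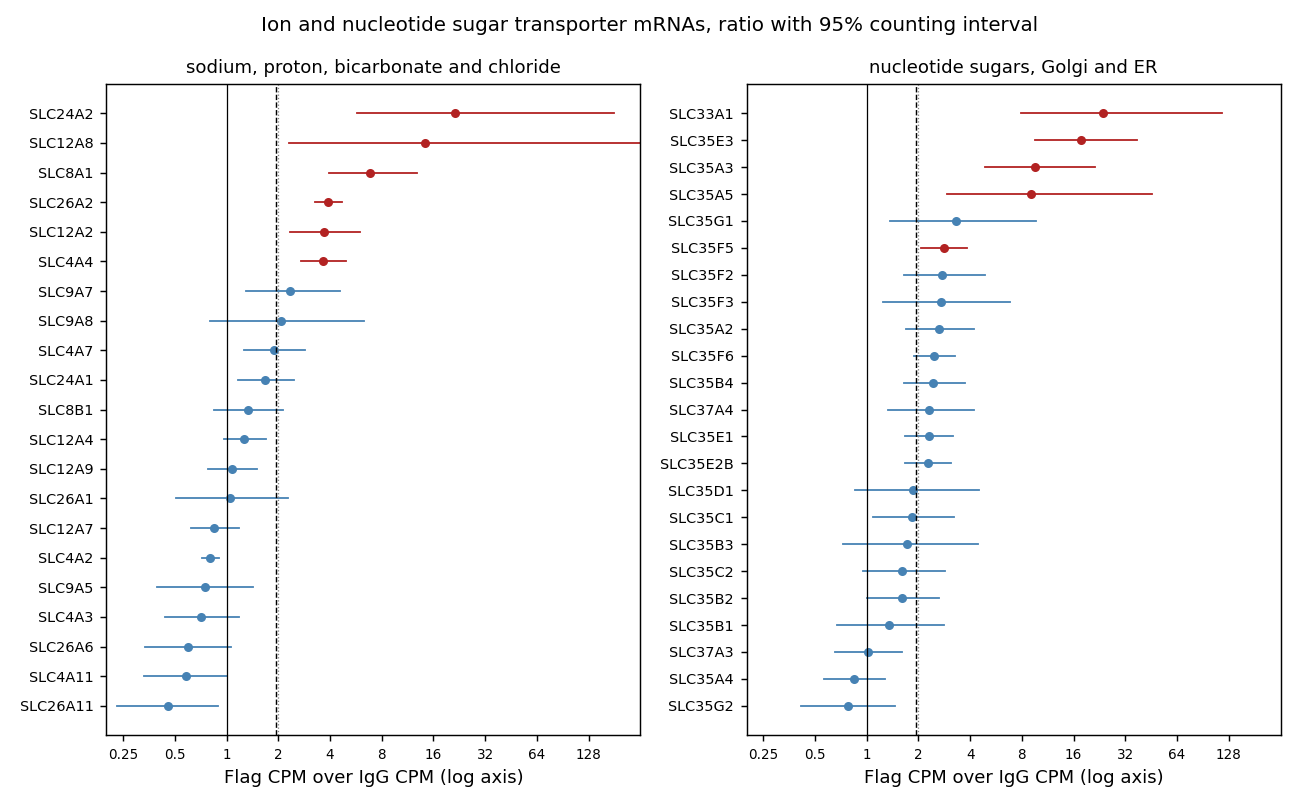
Ratio of Flag CPM to IgG CPM (log axis) of most ion transporters (left) and each carrier of families SLC33, SLC35 and SLC37 (right). Lines are 95% counting intervals, with red for enriched members. Vertical lines stand at 1 (solid), 2 (dotted) and the median gene at 1.93 (dashed). SLC26A2, SLC12A2 and SLC4A4 stand right of 2 while SLC4A2 and SLC26A11 stand left of 1, and the interval of SLC12A8 runs beyond the axis.

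Sugar transporters had 5 enriched (41.7%, beside 28.7% of all genes) and 0 depleted of 12, with a median log2 ratio of 0.79. SLC2A1, the glucose importer that most cells use and that hypoxia raises, had 108 CPM (596 counts) with Flag and 29.0 CPM (99 counts) with IgG, a ratio of 3.74 (3.02 to 4.67). SLC2A3, a second hypoxia-responsive glucose importer, had 35 Flag against 12 IgG counts and a ratio of 1.81 (0.918 to 3.83). These did not differ beyond counting error, the ratio of SLC2A1 being 2.06 times that of SLC2A3 (0.941 to 4.24). SLC2A13, a proton-coupled myo-inositol importer, had 189 Flag against 11 IgG counts and a ratio of 10.7 (5.83 to 21.7).

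SLC50A1, a sugar transporter of the SWEET family, had 73 Flag against 3 IgG counts, a ratio of 15.1 (4.97 to 74.9), and SLC45A3 117 Flag against 17 IgG counts (4.27, 2.56 to 7.58). For SLC2A10, with 30 Flag against 0 IgG counts, the ratio at the floor was 6.21 (lower bound 4.74). The sodium-coupled multivitamin importer SLC5A6 had 75 Flag against 53 IgG counts and a ratio of 0.878 (0.610 to 1.27), the lowest of the list, next to SLC2A6 (0.988, 0.563 to 1.77). The inositol importer SLC5A3 shares its span with MRPS6, and both of its rows had fractional counts, with ratios of 1.39 (0.958 to 2.03) and 1.66 (0.830 to 3.53).

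The monocarboxylate transporters of family SLC16, which move lactate, pyruvate and related acids, divided by member. SLC16A4 had 42.7 CPM (235 counts) with Flag and 3.22 CPM (11 counts) with IgG, a ratio of 13.3 (7.28 to 26.9). SLC16A7, a pyruvate and lactate importer, had 55 Flag against 0 IgG counts, a ratio of 11.4 at the floor (lower bound 8.95). SLC16A1, the widely used lactate transporter, had 159 Flag against 53 IgG counts and a ratio of 1.86 (1.36 to 2.59), close to the median gene, and the ratio of SLC16A4 was 7.12 times as large (3.53 to 15.5). SLC16A13 had 63 Flag against 25 IgG counts and a ratio of 1.56 (0.970 to 2.60). SLC16A3, the lactate exporter that hypoxia raises, had 13 Flag against 12 IgG counts and a ratio of 0.672 (0.283 to 1.61).

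Phosphate importers of family SLC20 differed as well. SLC20A2 had 163 counts with Flag and 24 with IgG, a ratio of 4.22 (2.74 to 6.77), while SLC20A1 had 801 with Flag and 301 with IgG and a ratio of 1.65 (1.45 to 1.89), wholly below the median gene. The ratio of SLC20A2 was 2.55 times that of SLC20A1 (1.62 to 4.18). SLC34A2, the sodium-phosphate cotransporter of lung and other epithelia, had 386 Flag against 157 IgG counts and a ratio of 1.53 (1.26 to 1.85), also below the median gene.

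Among 8 vitamin and heme transporters 2 were enriched. The folate importer SLC46A1 had 111 Flag against 10 IgG counts, a ratio of 6.89 (3.61 to 14.8, with fractional counts), and the thiamine importer SLC19A2 had 34 Flag against 3 IgG counts, a ratio of 7.03 (2.21 to 35.8). SLC19A1, which imports reduced folate, had 69 counts with Flag and 68 with IgG and a ratio of 0.630 (0.444 to 0.894), and the ratio of SLC19A2 was 11.2 times as large (3.24 to 58.8). The thiamine importer SLC19A3 had 21 Flag against 3 IgG counts and a ratio of 4.35 (1.30 to 22.8), and the ascorbate importer SLC23A2 74 Flag against 17 IgG counts and a ratio of 2.70 (1.58 to 4.88). The riboflavin importer SLC52A2 (1.09, 0.807 to 1.47) and the heme transporter SLC48A1 (1.12, 0.861 to 1.46) lay below the median gene.

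Of the organic ion, bile acid and peptide transporters, 8 entered of 49 listed. Only SLCO2A1, a prostaglandin transporter, was enriched (12.5% of the 8, beside 28.7% of all genes). It had 92 Flag against 6 IgG counts (9.52, 4.21 to 26.6). The carnitine importer SLC22A5 had 69 Flag against 18 IgG counts and a ratio of 2.38 (1.40 to 4.25), and the organic anion transporters SLCO3A1 and SLCO4A1 had ratios of 1.82 (0.994 to 3.52) and 1.37 (0.866 to 2.23). The 3 nucleoside transporters had 0 enriched, with ratios of 1.59 (1.16 to 2.21) for SLC29A1, 1.62 for SLC29A2 and 1.02 for SLC29A4. The choline transporter SLC44A1 was enriched with 159 Flag against 33 IgG counts (2.99, 2.05 to 4.49), and the fatty acid transporter SLC27A1, with 18 Flag against 19 IgG counts, had a ratio of 0.588 (0.291 to 1.18). SLC27A4, of the same kind, had a ratio of 1.54 (0.884 to 2.77) and SLC44A2 one of 1.14 (0.622 to 2.15). Among the remaining transporters SLC6A17, which loads synaptic vesicles with neutral amino acids, had 32 Flag against 3 IgG counts (6.62, 2.07 to 33.8), and the creatine importer SLC6A8 97 Flag against 46 IgG counts (1.31, 0.912 to 1.90).

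By place in the cell, 0 of 11 transporters of lysosomes, endosomes and vesicles and 6 of 25 of the Golgi and ER were enriched, beside 28.7% of all genes. The median log2 ratios were 1.14 and 1.18. The lysosomal list held 243 IgG counts in all, and its highest lower bound was 1.70 for SLC18B1, with 31 Flag against 4 IgG counts. SLC18A2, which loads vesicles with monoamines, had a ratio of 3.88 (1.34 to 15.3), the peptide and histidine transporter SLC15A4 1.89 (1.15 to 3.21) and the sialic acid exporter SLC17A5 2.03 (1.20 to 3.59). No difference between the places was tested.

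Transporters that mark kidney tubules were mostly under the minimum. Of 30 proximal tubule transporters 1 entered, SLC4A4, and 17 had 0 counts in both libraries. Those that did not enter had at most 11 counts with Flag and 8 with IgG. Of 7 distal nephron transporters 0 entered and 6 had 0 counts in both. A count of 0 allows up to 0.546 CPM with Flag and 0.879 CPM with IgG. Beside these, the renal marker PAX8 had 461 CPM in Flag and 307 CPM in IgG.

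The 5 genes named after a transporter were mixed. SLC4A1AP, which encodes a nuclear protein, had 373 Flag against 40 IgG counts and a ratio of 5.79 (4.17 to 8.23). The scaffold genes SLC9A3R1 and SLC9A3R2, whose proteins tether transporters at the apical membrane, stood at opposite ends, SLC9A3R1 with 78 Flag against 80 IgG counts (0.605, 0.437 to 0.837, fractional) and SLC9A3R2 with 36 Flag against 3 IgG counts (7.45, 2.35 to 37.8). SLC9A3R1 had the lowest upper bound of all members. SLC2A4RG, a transcription factor gene, had a ratio of 1.10 (0.832 to 1.46). SLC7A6OS, on the opposite strand of SLC7A6, had a ratio of 2.72 (1.47 to 5.42) with fractional counts, and the sum of both genes 1.33 (1.02 to 1.75).

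The authors' TPM, which are per length and so allow levels to be set between genes, gave another order in each library. In the Flag library SLC7A5 (95.78 TPM), SLC2A1 (85.56 TPM), SLC38A1 (79.46 TPM), SLC4A2 (69.85 TPM) and SLC39A1 (68.64 TPM) were highest among the members. In the IgG library SLC4A2 led with 127.18 TPM, ahead of SLC20A1 with 37.55 TPM, SLC38A2 with 33.2 TPM, SLC2A4RG with 29.62 TPM and SLC2A1 with 27.46 TPM. Neighbours in these orders have no replicate spread by which to part them.

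The mean transcript length that the files give for a gene also differed between the libraries. It was more than 2-fold longer in the Flag library for 14 members and more than 2-fold shorter for 7, together 14.9% of members beside 9.47% of all genes. Count and TPM ratios can part for such genes. SLC6A17 had a length of 5949 bases with Flag and 541 with IgG, and its level was 1.0 TPM with Flag and 2.48 TPM with IgG, a TPM ratio of 0.426 where counts gave 6.62. SLC6A15, a neutral amino acid transporter, had 4039 bases with Flag and 641 with IgG and a TPM ratio of 0.302, where counts gave 2.52 (1.42 to 4.78). SLC30A5, with 1401 bases with Flag and 450 with IgG, had a TPM ratio of 0.799, where counts gave 3.72. These IgG lengths rest on 3, 15 and 6 counts.

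By TPM with a pseudocount of 0.1, 56 members were past 2-fold higher and 10 past 2-fold lower, beside 44.2% and 6.59% of all genes. Of the 39 members enriched by counts 36 were past 2-fold by TPM too, and the exceptions were SLC6A17, SLC44A1 (1.48) and SLC12A2 (1.69). SLC12A7, with a TPM ratio of 0.316, and SLC4A11 (0.423) were among the 10. Over the 141 members, which share the same libraries, count and TPM ratios had a rank correlation of 0.80, beside 0.88 over all genes. The rank correlation of the ratio with transcript length was 0.26 among members and 0.18 over all genes, a description across genes.

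**Figure D5:**
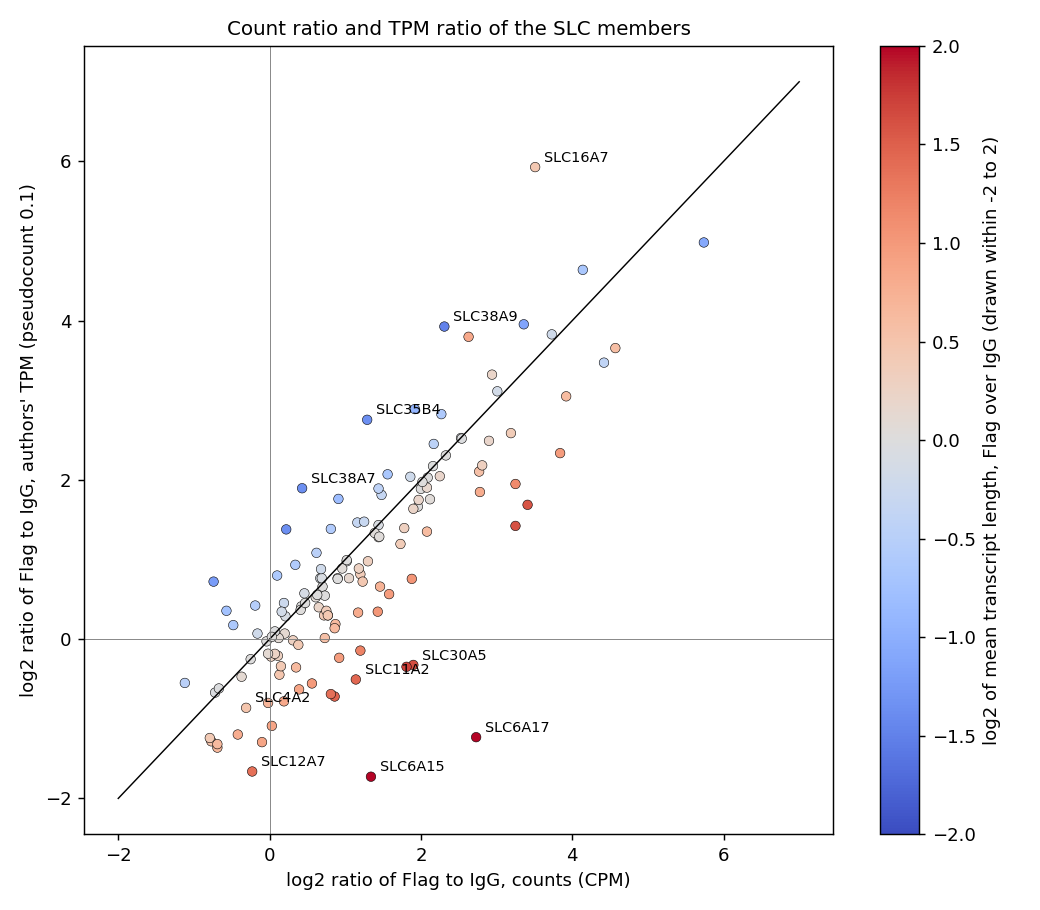
Log2 ratio of Flag to IgG by counts (x axis) and by the authors' TPM with a pseudocount of 0.1 (y axis) for the 141 SLC members, coloured by the log2 of the mean transcript length in the Flag library over the IgG library, with the line of equality in black. SLC6A17 and SLC6A15, whose transcripts were longer in the Flag library, lie farthest below the line.

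Where the libraries are scaled by TMM, every log2 ratio is lower by 0.78, 21 members stay enriched and 1, SLC9A3R1, is depleted, beside 12% and 6.12% of all genes. The 18 that lost their call then include SLC7A11, SLC2A1, SLC4A4, SLC26A2, SLC39A10, SLC41A1, SLC41A2, SLC20A2 and SLC12A2, while SLC38A1, SLC7A1, SLC7A5, SLC39A1, SLC39A6, SLC16A4, SLC35E3 and SLC35A3 kept theirs. Of the 39, 19 were enriched under all 13 alternatives other than a 4-fold threshold, wherever they entered. They were SLC7A1, SLC7A5, SLC38A1, SLC36A4, SLC39A6, SLC30A7, SLC33A1, SLC35A3, SLC35E3, SLC2A10, SLC2A13, SLC50A1, SLC16A4, SLC16A7, SLC8A1, SLC24A2, SLC46A1, SLCO2A1 and SLC4A1AP. Of these, only SLC7A1, SLC7A5, SLC38A1, SLC39A6 and SLC4A1AP had at least 20 IgG counts and entered the alternative with that minimum. The others, such as SLC30A7 with 1 IgG count and SLC16A7 with 0, were not put to that alternative. The same tally was not made over all genes.

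The mitochondrial carriers of family SLC25A, relatives left out of the members, had 8 enriched of 35 (22.9%) and a median log2 ratio of 0.72. TMEM genes, a heterogeneous set of membrane proteins, had 38 of 122 enriched (31.1%) and a median of 1.33. The shares lie on either side of the 27.7% of the SLC members, and no difference between these sets was tested.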

How the data were processed

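RNA immunoprecipitation was done in ACHN cells that express MEX3A-Flag, and the Flag and IgG libraries were analysed. The authors deposited expected counts, estimated reads per gene in the layout of RSEM output and not normalized, and TPM, in which the authors corrected for effective length, as the column names in the deposited files show. The files also give a mean transcript length per gene, deposited by the authors in another column. The submitters' processing notes name RSEM and STAR, with no version, and the builds GRCh37 and hg19, and the strand setting is not given in the sources used here. The extraction protocol is that of the labels.

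Expected counts were rounded, and Flag and IgG totals of 5498124 and 3412864 counts scaled them to CPM. Ratios carry exact Clopper-Pearson intervals at 95% from the Flag share of both counts (scipy 1.17.1), tested on simulated counts. The simulated counts held counting error only, so they check the computation and not the spread between libraries. A count of 0 was replaced by 3. Counts were fractional, beyond 0.01 of a whole number, in 17 members, 2 of them enriched, which means that the counter shared out some of their reads. In RefSeq all 141 members were found, and the span of 84 of them overlaps another annotated gene. No test across replicates was possible with 1 library per group. Alternatives were TMM (edgeR 4.0.16) and median-of-ratios scaling (DESeq2 1.42.0), other totals, other minimums, TPM (pseudocounts 0.1 and 1), counts with 0.5 added, other folds, a 99% interval and whole counts only.

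Members, lists and alternatives were chosen with earlier results of these data known. Named genes were taken by a rule from each list's highest lower bounds and lowest upper bounds, from the highest TPM, from the members at the count minimum and from families of 4 or more. Chosen after their values were seen were SLC1A1, SLC6A6, SLC9A7, SLC9A8, SLC8B1, SLC12A2, SLC12A4, SLC24A1, SLC30A1, SLC31A1, SLC35A2, SLC35B2, SLC35C1, SLC35E2B, SLC35F5, SLC36A4, SLC39A14, SLC40A1, SLC41A2 and SLC45A3. A few members that were counted are not reported here by name.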

Additional observations from a re-analysis of the deposited data

Results flagged for a closer look

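Of 82 SLC rows that are not protein-coding, such as pseudogenes and antisense RNAs, 1 had at least 20 counts over both libraries, and it lay outside the members. SLC9A7P1, a pseudogene of the sodium-proton exchanger gene SLC9A7, had 29 counts with Flag and 0 with IgG. Its ratio at the floor was 6.00, with a lower bound of 4.58, so that it was called enriched. SLC9A7 itself had 53 Flag against 14 IgG counts and a ratio of 2.35 (1.29 to 4.59). Both had whole counts. How reads were divided between the gene and its copy was not tested.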

How the results depend on the processing

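With total counts 39 members were enriched, 0 depleted, and the median log2 ratio was 0.92. Scaling by TMM left 21 enriched and median-of-ratios scaling 20, with 25 of 67 members at a minimum of 100 counts, 17 of 76 at a minimum of 20 IgG counts and 15 at 4-fold. Stricter minimums leave fewer genes, and the minimum of 20 IgG counts also takes out the 22 enriched members that lie under it. The depleted count was 1 with either scaling, 2 without a minimum (SLC3A1, with 0 Flag and 7 IgG counts, and SLC27A3, with 0 Flag and 8 IgG counts), 10 with TPM at a pseudocount of 0.1 and 6 at a pseudocount of 1, and 33 lay wholly below the median gene. The median log2 ratio was 0.14 by TMM, 0.13 by median-of-ratios, 0.68 where mitochondrial and the 10 most abundant genes were left out of the totals, 1.32 with protein-coding totals, 1.14 at 100 counts, 0.69 without a minimum, 0.67 at 20 IgG counts, and 0.75 and 0.57 with TPM at pseudocounts of 0.1 and 1. SLC6A17 turned to a ratio of 0.426 with TPM at a pseudocount of 0.1 and 0.575 at 1. Its transcript length differs between the libraries, and the cause was not tested. The enriched count was 31 without mitochondrial and the 10 most abundant genes in the totals, 52 with protein-coding totals, 41 without a minimum, 56 and 47 with TPM at pseudocounts of 0.1 and 1, 39 with 0.5 counts added, 53 at 1.5-fold, 32 with a 99% interval and 37 of 124 with whole counts only. The Results give shares over all genes for total counts, the median gene, TMM scaling, the minimum of 20 IgG counts and TPM at a pseudocount of 0.1. For the other settings no share over all genes was taken. Their changes therefore cannot be read as specific to SLC members. Low IgG counts limit the calls too, since 22 of the 39 enriched members had under 20. No paired analysis was possible because each group has 1 library.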

Other observations

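Transporters that burn ATP, which set the gradients that many SLC proteins use, were counted beside the members. Of 20 primary pumps that entered, the P-type ATPases of sodium, calcium, copper and phospholipids, 9 were enriched and 0 depleted, with a median log2 ratio of 1.14. Of 21 ABC transporters, 0 were enriched and 0 depleted, and the median was 0.56, with 2 members wholly above and 5 wholly below the median gene. Over all genes 28.7% were enriched. With TMM scaling 4 pumps were enriched and 1 depleted, and the ABC transporters again had 0 of each. Of 7 genes listed for partner proteins of transporters 5 entered, and 1 was enriched. No difference between these lists was tested.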
